A study of Mus musculus with 8 samples.

Results

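Vps13c, Dync1h1, Kmt2d, Ubr4 and Macf1 are genes with very long, many-exon mRNAs, and each was marked by 29 to 52 separate regions called as sites of N4-acetylcytidine (ac4C), an acetylated cytosine of RNA, in mouse monocytes on the way to osteoclasts. The members are the called peaks that overlap, by 1 base or more and in strand, a fixed stretch of each gene in the mm39 build. The 5 stretches held 291 of the 105252 peaks in the 4 deposited lists, and 197 of the 75389 regions formed when overlapping same-strand peaks of the lists were merged. The genes were chosen from measured values, namely the number of peaks they carry and, for Vps13c, the gap in that number between genotypes, so these numbers are descriptions and support nothing further. The lists themselves carry no gene names. The link from each stretch to its gene comes from the rule by which the members were picked and could not be checked here.

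NAT10 is the acetyltransferase that makes ac4C. It acts on ribosomal and transfer RNA, and ac4C has also been mapped in messenger RNA. The 5 genes encode giant proteins of different kinds. VPS13C is a bridge-like lipid transfer protein at contacts of the endoplasmic reticulum with late endosomes and lysosomes, and DYNC1H1 is the motor heavy chain of cytoplasmic dynein, which hauls cargo along microtubules. MACF1 is a spectraplakin that links actin filaments to microtubules. KMT2D is a histone H3 lysine 4 methyltransferase that acts at enhancers, and UBR4 is a ubiquitin ligase of the N-degron pathway. Osteoclasts are large cells that resorb bone, and they rely on lysosomal secretion and on a cytoskeleton that both actin and microtubules shape.

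Bone marrow-derived monocytes of wild-type (WT) mice and of Nat10 conditional knockout (CKO) mice had been treated with RANKL, the cytokine that induces osteoclast formation, for 3 days in all groups. Fragmented total RNA was pulled down with an antibody to ac4C (IP) and sequenced beside an untouched portion (input), which gave 8 samples (4 IP and 4 input) and 4 peak lists, 2 for each genotype. The Cre driver, the strain, the age and sex of the mice and any pooling of animals are not stated in the labels, and nothing says whether the numbered samples came from separate mice or cultures. The lists are called WT 1, WT 2, CKO 1 and CKO 2 below. The study's question, per its title and design text, is how loss of the enzyme changes ac4C during osteoclast formation.

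A peak marks enrichment of 1 IP library over its input, so a missing peak can mean less ac4C, less of the RNA, or too few reads, and no read totals are in the lists. In these bulk samples, fewer cells of a type and less RNA per cell cannot be told apart. The 4 lists held 24249 to 28087 peaks, and the stretches took 0.36% of WT 1, 0.217% of WT 2, 0.221% of CKO 1 and 0.305% of CKO 2. WT 2 stood apart from the other lists in the shape of its peaks, and also in their scores and call numbers. Peaks of exactly 200 bases, the most frequent width, made up 6.5% of WT 2 and 24.0% to 24.4% of the other 3. The median peak score deposited by the authors was 29.54 in WT 2, against 72.26 (WT 1), 71.28 (CKO 1) and 116.5 (CKO 2). The running call numbers in its peak names reached 39584, against 45960 to 61914 in the others. The loss of Nat10 itself and the markers of monocytes and osteoclasts were not checked, because positions in the lists are not tied to gene names.

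Vps13c and Macf1 had more peaks in each WT list than in either CKO list, while Dync1h1, Kmt2d and Ubr4 did not separate by genotype. At Vps13c, WT 1 held 15 peaks and WT 2 held 13, while CKO 1 held 5 and CKO 2 held 6. The Macf1 stretch held 17 and 14 in WT and 5 and 11 in CKO. For Dync1h1 the numbers were 28 and 13 in WT and 20 and 17 in CKO, so the WT lists lay on either side of the CKO lists. For Kmt2d they were 19 and 6 against 19 and 20, and for Ubr4 22 and 8 against 13 and 20. In these last 3 mRNAs the lowest number of all came from WT 2. That list was also the lowest there when peaks of exactly 200 bases were left out, at 13 (Dync1h1), 5 (Kmt2d) and 8 (Ubr4). Summed over the 5 mRNAs, the lists held 101, 54, 62 and 74 peaks in the order WT 1, WT 2, CKO 1, CKO 2, with a WT mean of 77.5 ± 33.2 and a CKO mean of 68.0 ± 8.5 (SD, n = 2 per genotype).

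**Figure D1:**
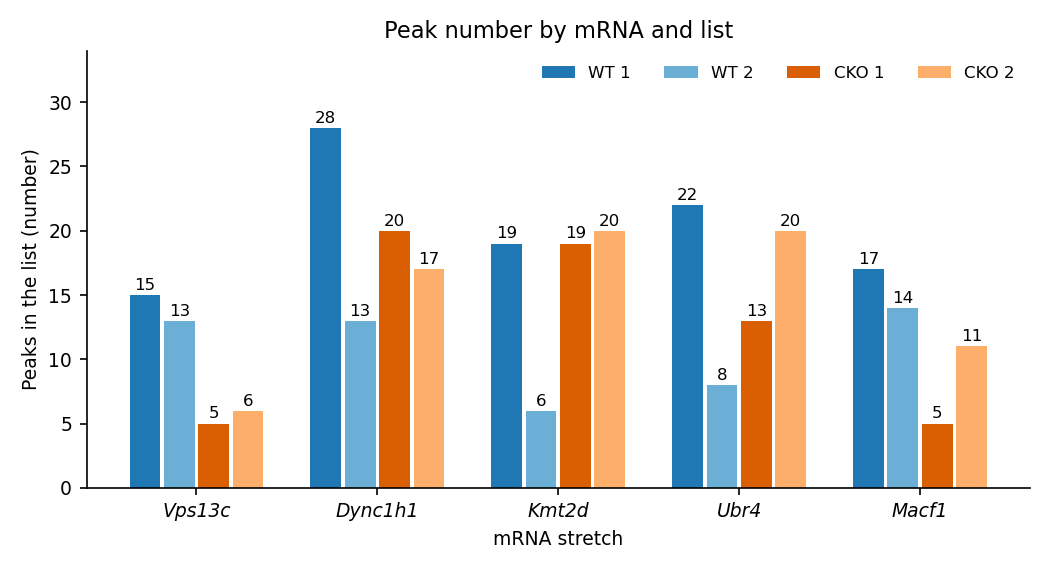
Number of called ac4C peaks (vertical axis) in the stretch of each mRNA (horizontal axis), with 1 bar for each of the 4 lists and its number above it. Vps13c and Macf1 are higher in both WT lists, at 13 to 17 peaks, than in the CKO lists, at 5 to 11, whereas WT 2 is the lowest list at Dync1h1, Kmt2d and Ubr4.

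The Vps13c stretch showed the widest gap. The WT mean was 14.0 ± 1.41 peaks and the CKO mean 5.5 ± 0.71 (SD, n = 2 per genotype), a difference of 8.5 peaks and a ratio of 2.55. Since this gap led to the choice of the gene, it has no test. Of the loci of the whole series, formed by chaining same-strand peaks across gaps of up to 5000 bases, 0.118% had both WT lists above both CKO lists by 3 peaks or more, and 0.218% had the reverse. Vps13c and Macf1 are among the loci higher in WT, by 7 and 3 peaks. Only 22 of the 27045 loci hold 39 peaks or more, and a locus with few peaks cannot show such a gap. The shares therefore do not say how rare the gap is among loci as dense as these. The peak names carry a running number from the original call, which followed position in every list. Between the first and last listed peak of Vps13c there were 17 call numbers in WT 1 and in WT 2 and 7 in CKO 1 and in CKO 2. These numbers count calls of either strand, and only between each list's own outermost listed peaks, which lie closer together in the CKO lists, so they are no separate support for the gap. Among peaks of 200 bases or more the lists held 2, 3, 3 and 0, and the gap was no longer seen.

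Along Vps13c, which is transcribed from the plus strand of chromosome 9, peaks were spread over bases 67793586 to 67865018. Cut into 4 sections of 17.9 kb from the 5′ end, the first held 2, 3, 1 and 3 peaks in the order WT 1, WT 2, CKO 1, CKO 2. The second held 3, 3, 1 and 1, the third 5, 2, 2 and 1, and the last 5, 5, 1 and 1. The genotypes overlapped in the first and the third of these sections and not in the other two. Each section holds few peaks, and whether the gap differs along the stretch was not tested.

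Of the 29 Vps13c regions, 20 had peaks of WT lists only, 6 of CKO lists only and 3 of both genotypes. So 89.7% had peaks of 1 genotype only, as had 77.0% of all regions in the series, and 19 of these 26 were called in a single list. No region was held by 3 or 4 lists. Present in both WT lists and absent from CKO were 5 regions, a class that made up 4.26% of all regions in the series. As the gene was chosen for its gap in peak number, this number of regions is no separate support for the gap. The 5 regions lay at bases 67823628 to 67823736, 67843574 to 67843743, 67844941 to 67845186, 67856598 to 67856678 and 67864783 to 67865018. The peak at 67856598 to 67856678 had the same 2 edges in both WT lists, at percentile 69.4 of the scores of WT 1 and 51.3 of WT 2. Here a percentile is the rank of the authors' deposited peak score within its own list, with 100 for the highest score. The region at 67844941 to 67845186 ranked highest of the 5, at percentiles 90.6 and 52.6.

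The knockout lists had Vps13c peaks of their own. Present in both CKO lists and absent from WT were 2 regions, at bases 67810841 to 67810874 and 67834644 to 67834711, a class that made up 3.64% of all regions. The first stood at percentile 55.3 of CKO 1 and 4.8 of CKO 2, and the second at 3.3 and 6.5, so the second was among the weakest peaks of both lists. The single strongest CKO peak of this mRNA, at 67817378 to 67817535, was in CKO 2 alone at percentile 92.1. It was also the region with the highest mean percentile in the whole stretch, a mean taken over only the lists that hold the region. A region of 1 list is thus not averaged with a weaker peak of another list. The WT 1 peak at 67823628 to 67823736 stood higher, at percentile 93.9, but its WT 2 partner stood at 13.6.

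The Macf1 stretch was the other one with higher peak numbers in both WT lists. It had a WT mean of 15.5 ± 2.12 peaks and a CKO mean of 8.0 ± 4.24 (SD, n = 2 per genotype), a difference of 7.5 peaks and a ratio of 1.94. An exact two-sided permutation test over the lists gave p = 0.333 (adjusted p = 1.0 over the 27045 loci), and with 2 lists against 2 no smaller p than 0.333 can be reached. With so high a floor the test cannot decide whether the genotypes differ, at Macf1 or at the mRNAs tested below. Over all loci, most of them with far fewer peaks than Macf1, 7.16% had both WT lists above both CKO lists, and 6.45% had the reverse. The CKO lists differed from each other by 6 peaks here, and the difference between genotypes ranged from 4.5 to 10.5 peaks when each list was left out in turn. Among peaks of 200 bases or more the WT lists held 5 and 1 and the CKO lists 0 and 3, a difference of 1.5 with overlapping genotypes (exact two-sided permutation p = 0.667).

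The CKO peaks of Macf1 could be compared with WT peaks by position. Of the 5 peaks in CKO 1, 4 lay in a region with a WT peak, and so did 7 of the 11 in CKO 2. At Vps13c the corresponding numbers were 3 of 5 and 0 of 6. Over all peaks the shares were 38.6% of CKO 1 and 40.2% of CKO 2. These differences rest on few peaks and were not tested. The 2 CKO lists shared no Macf1 region with each other. On the minus strand of chromosome 4, 5 regions were held by 3 lists, in each case by both WT lists and 1 CKO list. These were at bases 123369285 to 123369681, 123385545 to 123385625 and 123402206 to 123402334 with CKO 2, and at 123374093 to 123374115 and 123391623 to 123391675 with CKO 1. The region at 123391623 to 123391675 had the same 2 edges, 53 bases apart, in all 3 lists that held it, at percentiles 58.4 (WT 1), 74.3 (WT 2) and 94.0 (CKO 1). Both WT lists alone held 1 region, at 123398282 to 123398342, and both CKO lists alone held 0. The highest mean percentile, 96.6, belonged to a peak of WT 1 alone at 123366303 to 123366607, close to the 3′ end of the stretch.

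**Figure D2:**
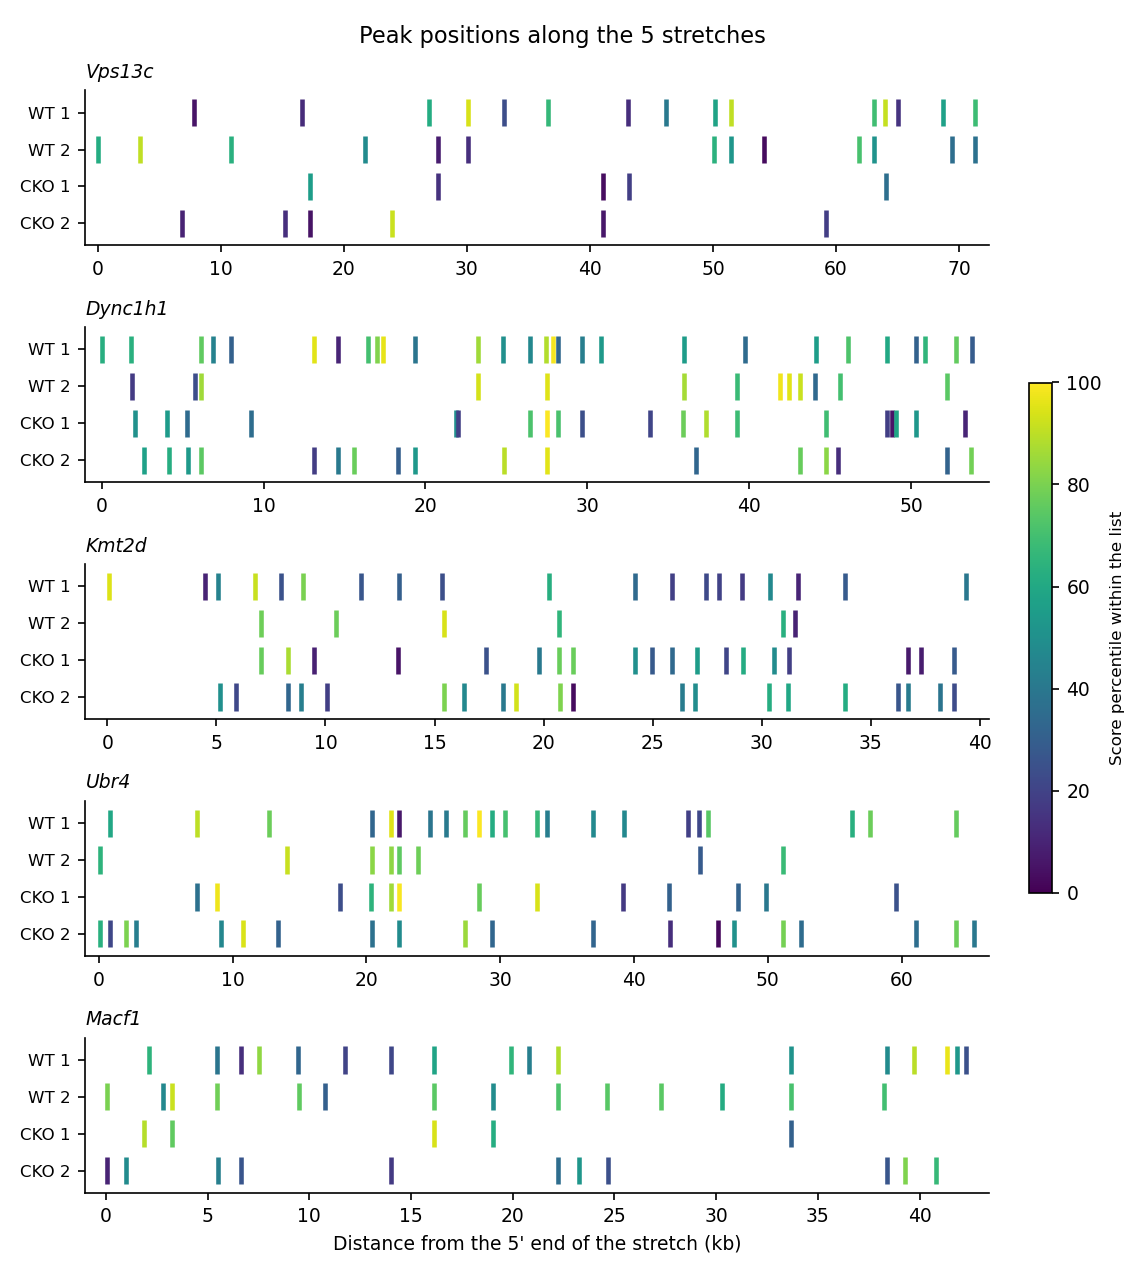
Position of every peak along the 5 stretches, as distance in kb from the 5′ end of the stretch (horizontal axis), with 1 row per list and the colour giving the percentile of the peak's score within its list. Vps13c has 15 and 13 peaks in the WT rows and 5 and 6 in the CKO rows, and in Macf1 several WT peaks line up with a peak of 1 CKO list.

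Dync1h1, the dynein heavy chain, carried more peaks than any other locus of the series, 78 over the 4 lists. The WT mean was 20.5 ± 10.61 and the CKO mean 18.5 ± 2.12 (SD, n = 2 per genotype), so the difference of 2.0 peaks was far below the spread of the WT lists, and the exact two-sided permutation p was 1.0 (adjusted p = 1.0 over all loci). The difference changed sign to -5.5 without WT 1. One place stood out by its presence in every list. The region on the plus strand of chromosome 12 at bases 110606168 to 110606398 was held by all 4 lists, as were 0.964% of all regions, and it stood at percentiles 88.4 (WT 1), 95.1 (WT 2), 99.4 (CKO 1) and 95.6 (CKO 2). The CKO values lay above both WT values, and each list was called separately. The peak with the highest percentile in WT 1, at 98.8 and at bases 110606580 to 110606701, lay beside it and was in that list alone.

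Dync1h1 had as many regions shared by the WT lists alone as by the CKO lists alone. Over all regions these classes made up 4.26% and 3.64%. Of the mixed pairs, WT 1 shared 5 such Dync1h1 regions with CKO 1 and 5 with CKO 2, and WT 2 shared 1 with CKO 1 and 2 with CKO 2. Both WT lists alone held 3 of the 52 regions, at bases 110580591 to 110580652, 110601935 to 110602160 and 110622719 to 110622931. Both CKO lists alone also held 3, at 110582774 to 110583045, 110584054 to 110584155 and 110623477 to 110623535. The WT region at 110601935 to 110602160 was the strongest of these, at percentiles 85.9 of WT 1 and 93.7 of WT 2. Regions held by 3 lists lay at 110584773 to 110585104, without CKO 1, and at 110614695 to 110614817, without CKO 2. Regions with peaks of both genotypes numbered 16, beside 19 with WT peaks only and 17 with CKO peaks only. So 69.2% had peaks of 1 genotype only, beside 77.0% over all regions.

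Kmt2d, the enhancer methyltransferase, had fewer peaks in WT than in CKO on average, and the difference rested on WT 2. The WT mean was 12.5 ± 9.19 and the CKO mean 19.5 ± 0.71 (SD, n = 2 per genotype), a difference of -7.0 peaks with an exact two-sided permutation p of 0.667 (adjusted p = 1.0 over all loci). Without WT 2 the difference shrank to -0.5. Peaks of exactly 200 bases were common here, at 5 in WT 1, 1 in WT 2, 7 in CKO 1 and 7 in CKO 2, and the other widths gave 14, 5, 12 and 13 peaks, so WT 2 was also low among these. The part that this list's peak shape, scores or calls have in the difference was not tested.

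Kmt2d also had the most regions shared by the CKO lists alone, 5 of its 44, against 1 for the WT lists alone. Over all regions these classes made up 3.64% and 4.26%. Of the mixed pairs, WT 1 shared 4 such regions with CKO 1 and 4 with CKO 2, and WT 2 shared 1 with each. The 5 regions of the CKO pair lay on the minus strand of chromosome 15 at bases 98730149 to 98730348, 98732290 to 98732473, 98741793 to 98742240, 98747566 to 98747838 and 98760658 to 98760861. Their mean percentiles ran from 24.1 to 59.9. All but the one at 98732290 to 98732473 included a peak of exactly 200 bases, a width that made up 6.5% of WT 2. Without peaks of that width, the regions of both CKO lists alone over the 5 mRNAs fell from 11 to 7. The WT region, at 98737287 to 98737651, was weak in both lists, at percentiles 10.4 and 9.7. Regions at 98737656 to 98738228 and 98748115 to 98748534 were each held by WT 2 and both CKO lists. So WT 2, with only 6 Kmt2d peaks, had 4 of them in regions with a CKO peak. The highest mean percentile, 94.9, was that of a peak of WT 1 alone at 98768921 to 98769064, the 5′-most peak of the stretch.

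Ubr4, the ubiquitin ligase, had a WT mean of 15.0 ± 9.9 peaks and a CKO mean of 16.5 ± 4.95 (SD, n = 2 per genotype). The difference of -1.5 peaks was below the spread in either genotype, with an exact two-sided permutation p of 1.0 (adjusted p = 1.0 over all loci), and it turned to 5.5 without WT 2 and to 2.0 without CKO 2. With the top 50% of each list by score it was 4.0, with 13 and 7 peaks in WT and 6 and 6 in CKO (exact two-sided permutation p = 0.333). The 13 Ubr4 regions held by 2 lists were spread from 0.1 to 64.0 kb from the 5′ end of the stretch, while those held by more lists lay close together. Both Ubr4 regions held by all 4 lists, on the plus strand of chromosome 4 at bases 139155346 to 139155511 and 139157435 to 139157474, and its 1 region held by 3 lists, at 139156803 to 139156866, lay from 20.4 to 22.4 kb from that end.

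The scores at these Ubr4 sites varied widely between lists. The region at 139157435 to 139157474 stood at percentile 6.4 of WT 1, 75.0 of WT 2, 99.1 of CKO 1 and 48.0 of CKO 2, although all 4 peaks began at the same base. The region at 139155346 to 139155511 stood at 32.7, 82.8, 64.6 and 37.1 in the same order. The region at 139156803 to 139156866 was more even, at 95.3 (WT 1), 83.2 (WT 2) and 85.7 (CKO 1). Both WT lists alone held 1 Ubr4 region, at 139179882 to 139179954, and both CKO lists alone held 1, at 139177626 to 139177773. Its highest mean percentile over the lists that hold a region, 97.6, was that of a peak of CKO 1 alone at 139143864 to 139143909. Single peaks of regions held by more lists stood higher, at 99.3 in WT 1 (139163433 to 139163472) and 99.1 in CKO 1.

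The rank of the peaks within their lists differed between the mRNAs. At Vps13c the median percentile was 58.1 in WT 1 and 51.3 in WT 2, and 18.6 in CKO 1 and 11.6 in CKO 2. So the CKO peaks of this mRNA were mostly weak ones of their lists. In the stronger 50% of each list Vps13c kept 9 and 7 WT peaks and 1 and 1 CKO peaks. These ranks and numbers come from the same peaks as the gap for which the gene was chosen, so they are no separate support for it. At Macf1 the medians were 51.5 and 73.1 in WT and 75.6 and 35.4 in CKO, which overlapped. At Dync1h1 they were 57.6 and 85.7 against 51.7 and 56.9, so the lower WT median lay just above the higher CKO median.

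At Kmt2d, WT 2 stood apart. The Kmt2d medians were 28.2 in WT 1, 71.6 in WT 2, 33.7 in CKO 1 and 41.9 in CKO 2, and 5 of the 6 peaks of WT 2 stood above the median of their list. The Ubr4 medians were 62.2 and 76.5 in WT and 40.0 and 41.1 in CKO, with no overlap between genotypes. Over the 5 mRNAs together the medians were 53.2, 70.6, 44.2 and 41.8 in the order WT 1, WT 2, CKO 1, CKO 2, where a whole list has a median of 50 by construction. Of the 291 peaks, 30 (10.3%) stood above the 90th percentile of their list. Over all peaks this share is 10.0%.

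**Figure D3:**
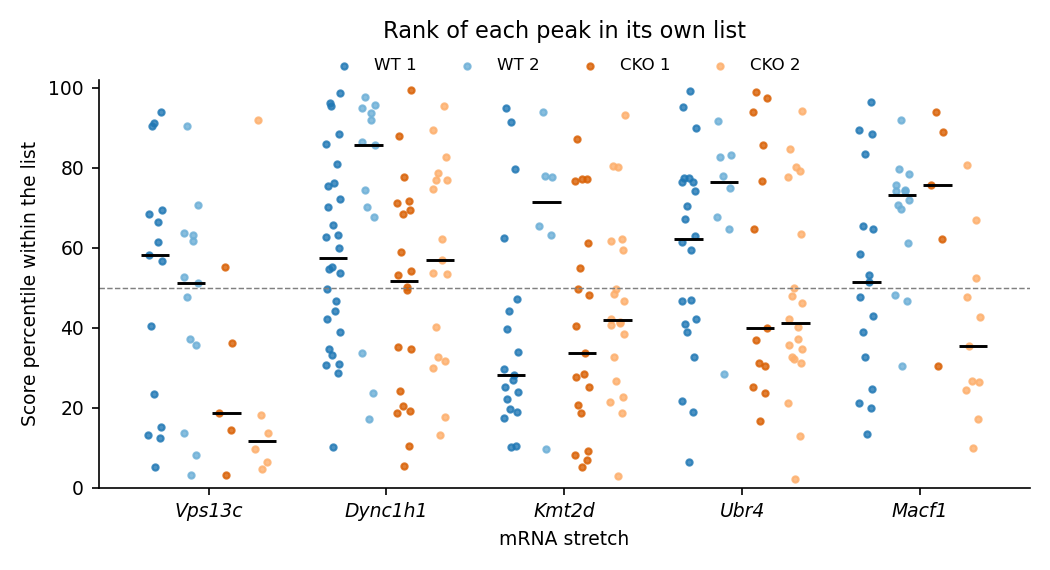
Percentile of each peak's deposited score within its own list (vertical axis, dashed line at 50) for the 5 mRNAs and 4 lists (horizontal axis), with 1 point per peak and a bar at the median. The Vps13c medians are 58.1 and 51.3 for WT but 18.6 and 11.6 for CKO, while the Macf1 medians overlap between genotypes and the Dync1h1 medians, at 57.6 and 85.7 for WT and 51.7 and 56.9 for CKO, are separated by a narrow margin.

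Most regions in the 5 mRNAs were called in a single list. Of the 197 regions, 119 (60.4%) were in 1 list, beside 69.1% over all regions of the series. In 2 lists were 65, in 3 lists 10 and in all 4 lists 3 (1.52%). The share in 1 list was highest at Vps13c (65.5%) and lowest at Dync1h1 (57.7%). Macf1 held 5 of the 10 regions of 3 lists. By genotype, 77 regions had WT peaks only, 64 had CKO peaks only and 56 had both. The 141 regions with peaks of 1 genotype only were 71.6% of the 197, beside 77.0% over all regions.

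**Figure D4:**
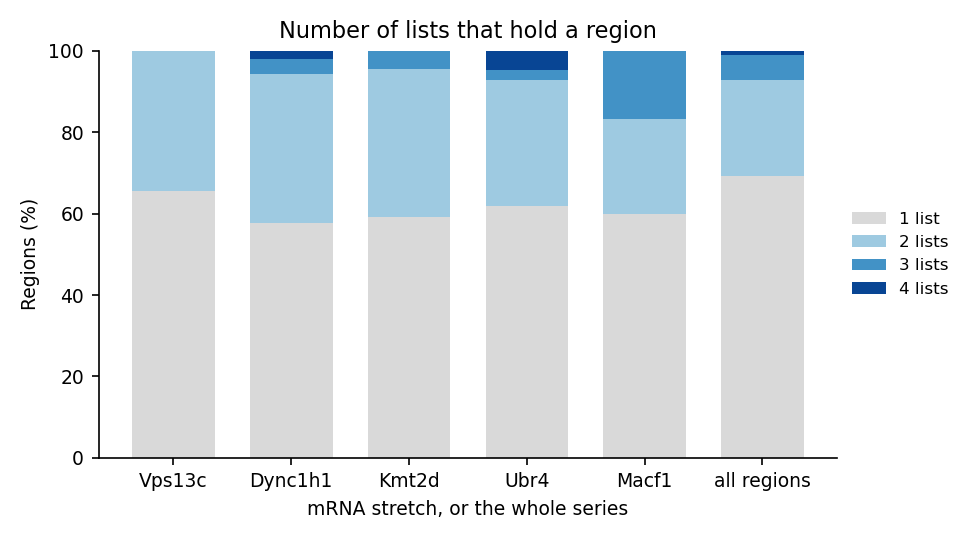
Share of merged regions (vertical axis, percent) held by 1, 2, 3 or 4 lists in each of the 5 stretches and over the whole series (horizontal axis). Regions of 1 list are 57.7% to 65.5% in the stretches and 69.1% over all regions, and Vps13c has none in 3 or 4 lists.

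Both WT lists alone held 11 of the 197 regions (5.58%), and both CKO lists alone also held 11. Over the whole series the shares were 4.26% and 3.64%. Of the pairs that mix the genotypes, WT 1 shared 15 such regions with CKO 1 and 16 with CKO 2. WT 2 shared 5 with CKO 1 and 7 with CKO 2. The same-genotype pairs thus fell inside the range of the mixed pairs, whose highest numbers were those with WT 1, the list with most member peaks. Vps13c departed from this order, with 5 regions in the WT pair and at most 2 in any other pair. Its WT lists held 15 and 13 peaks and its CKO lists 5 and 6, the gap for which it was chosen. Lists with more peaks can share more regions, so these pair numbers are no separate support for the gap.

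Overlap by bases was uneven among the mRNAs. The Jaccard index, which divides the bases covered in both lists of a pair by those covered in either, was 0.1303 for the WT pair and 0.1448 for the CKO pair over the 5 stretches, and 0.0721 to 0.1195 for the 4 mixed pairs. The mean within genotypes exceeded that across by 0.0328, where the whole lists gave -0.0004. The 5 stretches include Vps13c, chosen for its gap between genotypes, so this difference is no separate support for a genotype pattern. In the top 50% of each list by score it fell to 0.0086. At Vps13c the WT pair reached 0.2561, the CKO pair 0.0682 and the mixed pairs at most 0.1022. At Kmt2d the CKO pair reached 0.253 and no other pair more than 0.0826. At Macf1, in contrast, the CKO pair was at 0.0 and the WT pair at 0.1043, below 3 of the 4 mixed pairs. Overlap within a genotype was therefore not a common feature of the 5 mRNAs.

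Peaks of different lists that overlapped often began at exactly the same base. Of the 112 overlapping pairs of peaks in the stretches, 80 (71.4%) had the same 5′ edge and 21 (18.8%) the same 3′ edge, where edges are named in the direction of the transcript. Over the whole series 65.0% of 36201 such pairs had the same 5′ edge and 15.5% the same 3′ edge. In Ubr4 all 28 pairs shared the 5′ edge and only 2 the 3′ edge. In Macf1 it was 19 of 22 pairs and in Dync1h1 22 of 31. In Kmt2d it was 6 of 21 and in Vps13c 5 of 10. Exon borders in mm39 were not located here, so whether these shared edges lie at exon starts was not tested.

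Peak width differed among the 5 mRNAs as well. The median was 69.0 bases at Ubr4, 80.0 at Macf1, 95 at Vps13c, 98.5 at Dync1h1 and 192.0 at Kmt2d, beside 114.0 over all peaks. Kmt2d held 20 of the 28 peaks of exactly 200 bases, and Dync1h1 held 0 of them. At Vps13c the 3 peaks of this width were all in CKO 1, and the other 2 peaks of that list were 14 and 68 bases long. Merged over the 4 lists, peaks covered 20.6% of the Kmt2d stretch, 10.7% of Dync1h1, 9.4% of Macf1, 5.7% of Ubr4 and 4.4% of Vps13c, as shares of genomic length with introns included. Kmt2d and Dync1h1 had 11.2 and 9.7 regions per 10 kb of such length, and Vps13c had 4.1.

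Few calls were left out between the outermost listed peaks of these stretches. The deposited lists hold 45.3% to 62.8% of the call numbers of their libraries as a whole. Between each list's own first and last listed peak of a stretch, however, 71.4% to 100.0% of the call numbers were listed. The end peaks are listed by construction and calls outside them are not counted, so these shares are not on an equal footing with those of whole lists. At Vps13c the shares were 88.2% and 76.5% in WT and 71.4% and 85.7% in CKO, and the lowest elsewhere was 81.0%, at Macf1 in WT 1. No peak on the opposite strand lay inside any of the 5 stretches.

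Among the densely marked loci, Vps13c and Macf1 were those with more peaks in both WT lists. The 22 loci of the series with 39 peaks or more, the number at Vps13c, included the 5 stretches. Both WT lists exceeded both CKO lists at 2 of the 22 (9.09%), namely Vps13c and Macf1, and both CKO lists exceeded both WT lists at 2 others, by 1 peak each. Since dense peaks and the Vps13c gap were used to pick the members, nothing is read from this count. Dync1h1, Kmt2d and Ubr4, with 78, 64 and 63 peaks, were the 3 densest of all loci. Macf1 had 47, the same as 4 other loci, with 8 loci above it. WT 2 was the lowest list at 11 of the 22 loci, 3 of them among the 5 stretches, so its low numbers at Dync1h1, Kmt2d and Ubr4 recurred at 8 of the 17 other dense loci. The densest of those 17, in the order WT 1, WT 2, CKO 1, CKO 2, held 16, 3, 14 and 27 peaks (minus strand of chromosome 10, bases 127374680 to 127431215) and 21, 9, 13 and 14 (minus strand of chromosome 7, 117734208 to 117806237). Next, with 51 peaks each, came the plus strand of chromosome 1 (34276776 to 34334592), at 17, 11, 11 and 12, and of chromosome 11 (75377642 to 75417207), at 16, 7, 13 and 15.

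**Figure D5:**
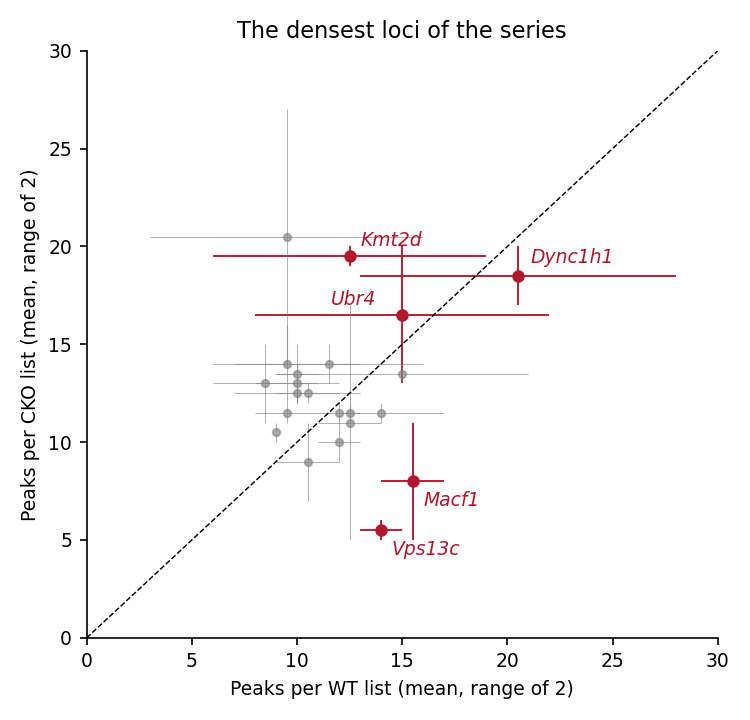
Peaks per list in CKO (vertical axis) against WT (horizontal axis) for the 22 loci with 39 peaks or more. Points are the mean of 2 lists, lines run from the lower to the higher list, the dashed line marks equal numbers, and the 5 named mRNAs are red. Vps13c, at 14.0 and 5.5, and Macf1, at 15.5 and 8.0, lie below the line with ranges that do not reach it.

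The dense locus most like Vps13c in its 4 values was Macf1. Likeness was measured as the sum over the lists of the absolute difference in peaks per 10000 peaks of the list, which was 3.18 for Macf1. The next were a locus on the minus strand of chromosome 17 (bases 12902852 to 12945242), at 5.0, with 13, 11, 9 and 11 peaks in the order WT 1, WT 2, CKO 1, CKO 2, and one on the minus strand of chromosome 4 (129509496 to 129551281), at 5.23, with 12, 9, 11 and 7. Of the loci outside the 5 stretches the third most alike was on the plus strand of chromosome 14 (20724606 to 20771309), at 5.67, with 13, 12, 12 and 11. At none of these 3 did both WT lists exceed both CKO lists. Another dense locus lay on the Macf1 strand 69723 bases beyond the 3′ end of the Macf1 stretch, at 123254762 to 123295705, and there the lists held 12, 12, 11 and 12 peaks. Whether it belongs to the same gene was not determined here. Its numbers were level where those of the Macf1 stretch were not.

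The stretches end where no same-strand peak of any list followed within 5000 bases, and the genes can run on beyond them. The nearest peaks outside lay 5312 bases past the 3′ end of the Vps13c stretch, in WT 1, and 7222 bases before its 5′ end, in CKO 2. At Ubr4 the nearest were 6391 bases before and 5728 bases after the stretch, and at Macf1 13438 before and 5561 after. At Dync1h1 they were 10557 before and 72614 after, and at Kmt2d 8594 before and 15998 after. With each stretch widened by 10000 bases on both sides, Vps13c held 16 and 14 WT and 5 and 8 CKO peaks. Macf1 then held 18 and 15 against 8 and 11. The widened stretches include every peak of the original ones, so these numbers are no separate support for the gaps. In the order WT 1, WT 2, CKO 1, CKO 2, the 20 kb past the 3′ end held 2, 2, 1 and 1 peaks at Vps13c. At Macf1 it held 3, 2, 5 and 1. The 20 kb before the 5′ end held 0, 0, 0 and 2 at Vps13c and 1, 0, 0 and 0 at Macf1.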

How the data were processed

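IP and input libraries of 4 pairs of samples (2 WT, 2 CKO) underlie 4 deposited peak lists. Trimming, mapping and calling tools are, per the submitters' processing notes, MACS2 2.2.7.1, STAR 2.7.8a and fastp 0.20.1, on mm39. Per the labels, peaks are of IP against input, and peak names show that each library was called alone. How the authors restricted peaks to mRNA and gave them a strand is not stated. The deposited score has no stated definition, so it was used only as a rank within its list. Lowest scores were 5.0 to 5.03. Positions were read as BED and are printed counting from 1.

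Peaks sharing 1 base on a strand were merged into regions, and peaks chained across gaps of up to 5000 bases formed loci. Peak numbers were compared by exact two-sided permutation, with Benjamini-Hochberg adjustment over all 27045 loci. Python 3.11.15, numpy 2.4.6 and pandas 2.3.3 were used, and the merge was tested on simulated lists. No peak name occurred more than once. Members and lists were chosen with earlier results of these data known. All 5 mRNAs are named. Named regions are those held by 3 or 4 lists, those held by both lists of 1 genotype alone, and the region of highest mean percentile in each mRNA. The mean percentile covers only the lists that hold the region. Regions of 3 lists were added after their values were seen. Dense loci named, outside the 5, are the 3 densest (4 with a tie) and the 3 most like Vps13c in peaks per list, and the locus near Macf1 was added after its values were seen. Related genes of the same families could not be located without an mm39 annotation, and peak sequences were not used here. Alternatives were stricter scores, width, equal list sizes, overlap, span and leaving out each list.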

Additional observations from a re-analysis of the deposited data

How the results depend on the processing

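For Vps13c the WT minus CKO difference of 8.5 peaks became 7.0 in the top 50% of each list, 1.0 with peaks of 200 bases or more, and 10.0 both without peaks of exactly 200 bases and counting all call numbers between the outermost listed peaks (these 2 settings were chosen after seeing the data); leaving out 1 list gave 7.5 to 9.5. The Macf1 difference kept its sign in all 13 settings, at 4.5 to 10.5 without 1 list, but fell to 1.5 with peaks of 200 bases or more, where the genotypes overlapped. That of Kmt2d also kept its sign, at -13.5 to -0.5 without 1 list and -1.5 in the top 50%. Dync1h1 ranged from -5.5 to 9.5 and Ubr4 from -8.5 to 5.5 without 1 list, and Ubr4 was 4.0 in the top 50%. The sum over the 5 mRNAs, 9.5, became -2.0 with peaks of 200 bases or more and -14.0 (without WT 1) to 33.0 (without WT 2). Regions of both WT lists alone, 11, became 6 in the top 50% and 4 with 200 bases or more; those of both CKO lists alone, 11, became 2, 4 and, without peaks of exactly 200 bases, 7. Leaving out 1 list gave 15 to 59 and 11 to 42, since 1 genotype then has only 1 list. The Jaccard difference of 0.0328 became 0.0086 in the top 50% and 0.1052 with 200 bases or more, and 0.0128 to 0.0509 without 1 list. The difference in median width, 1.75 bases, became -8.0 with peaks of 50 bases or more and -7.5 to 11.0 without 1 list. Where a list is not named above, the cause was not tested. The replicate numbers only name samples (correlation of the deviations of like-numbered lists -0.09 over 2339 loci). With the replicate block, a difference in peak number is the mean of the WT minus CKO differences within numbers. It equals the main value by construction, at 8.5 (Vps13c), 7.5 (Macf1), 2.0 (Dync1h1), -7.0 (Kmt2d), -1.5 (Ubr4) and 9.5 (sum), and so tests nothing. Within both numbers WT was higher at Vps13c (10 and 7) and Macf1 (12 and 3). The signs were opposite at Dync1h1, at Ubr4 and in the sum, and the Kmt2d difference lay within 1 number only. The Jaccard difference with the block was 0.0418, and regions held alone, counted within numbers, averaged 58.5 and 49.0. Unknown read depth limits every absent peak.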
